A study of Arabidopsis thaliana with 4 samples.

Results

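Both ChIP replicates of SHORT LIFE (SHL) listed peaks in 2186 common regions on the nuclear chromosomes of Arabidopsis thaliana. Of these, 630 were narrow, low-scoring regions within protein-coding genes. Peaks of the 2 lists that overlapped by 1 bp or more were merged, and a region was a member if every peak in it scored under 100, its merged width was under 2000 bp and its midpoint lay in a protein-coding gene body. The low score, the width, the presence of a peak in both lists and the place of the midpoint are therefore how the regions were chosen and not findings about them. The peaks come from whole Col-0 seedlings of about 10 days, grown in days of 16 h light, and precipitated with an anti-HA antibody in 2 ChIP samples. The seedlings, like those of the 2 input DNA samples, carried SHL fused to an HA tag under its native promoter in the ebs shl background, so every sample was also mutant for EBS. The input samples were not analysed here, and neither were plants without the tag. Whole seedlings mix all organs, so a gene bound in few cells and a gene bound weakly in many cannot be told apart. Nothing in the labels says that the replicates were separate cultures.

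SHL is a plant reader of histone modifications. Its BAH domain binds the trimethyl mark that Polycomb complexes place on silent developmental genes, and its PHD finger binds a methyl mark of active promoters. EBS is its close relative, and both are known in Arabidopsis as repressors of flowering.

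Replicate 1 listed 3668 nuclear peaks and replicate 2 listed 3487, and the narrow regions used 637 and 631 of them (17.4% and 18.1%). The score of each peak is the authors' own and ranks peaks within its list. No source used here puts the lists on a common scale, so the scores of the replicates are set side by side and their sizes are not compared. Wherever a pair of scores is given, the value of replicate 1 stands before that of replicate 2. By the convention of their peak caller the score is a p-value on a negative log10 scale multiplied by 10, though no file header says so, and thus the lowest scores in the lists, 20.01 and 20, would stand for a p of about 0.01 and a score of 50 for 1e-05. Peaks under 100 made up 71.1% of each list, so a low score was the usual case. Read depth is unknown from these lists.

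Within the 630 regions most scores were far below the limit. The median was 33.5 in replicate 1 (quartiles 25.9 and 44.9) and 32.7 in replicate 2 (24.9 and 46.2). Both peaks scored under 50 in 436 regions (69.2%), 1 of the peaks reached 50 in 151, and both did in 43 (6.83%). A region that scored higher in one list did not reliably do so in the other: over the 630 regions, which share the same 2 libraries and whose range of scores is cut by the rule, Pearson's r of the scores was 0.35 and Spearman's rho 0.32. The same values over the 300 high-scoring genic regions, whose range the rule does not cut at the top, were 0.99 and 0.96. The highest scores of that class were crowded, however. Their upper quartile was 3100 in both lists, with maxima of 3217 in replicate 1 and 3220 in replicate 2. Merged widths ran from 658 to 1999 bp with a median of 1432.5 bp. Among the 630 regions wider peaks tended to have higher scores, with rho of 0.52 in replicate 1 and 0.55 in replicate 2. The rule cuts the range of both measures, and this was not computed over the whole lists.

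**Figure D1:**
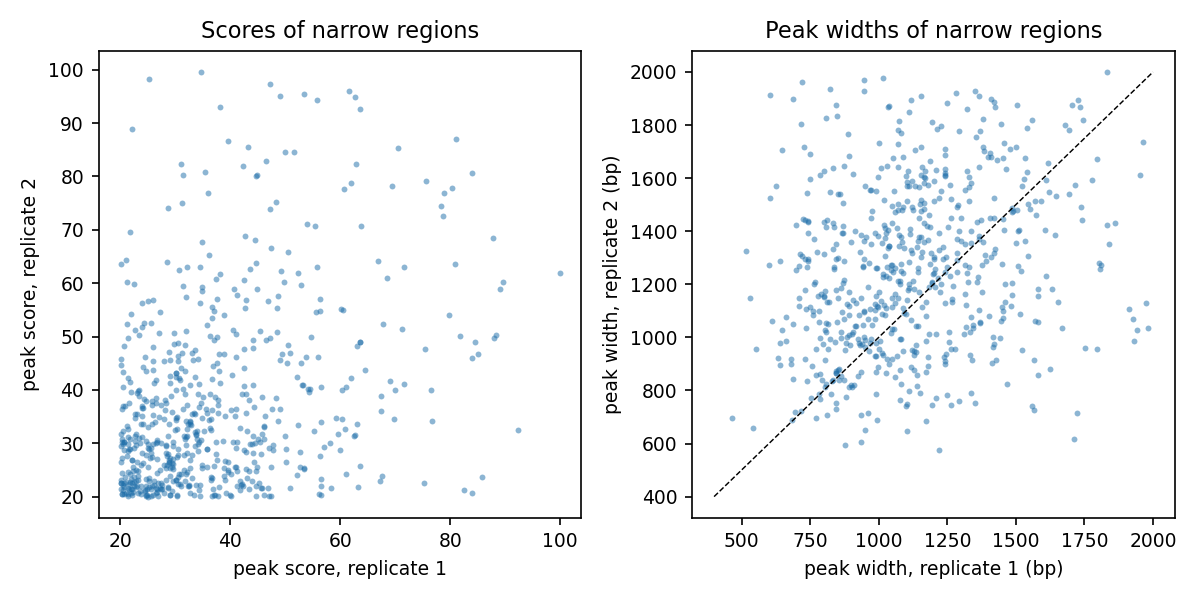
Peak score (left, authors' units) and peak width in bp (right) of each of the 630 narrow low-scoring regions in replicate 1 (x axis) and replicate 2 (y axis), where a point is the best peak of a region and the dashed line on the right marks equal widths. Points crowd at the low end of both score axes, with medians of 33.5 and 32.7. The wider peak is that of replicate 2 in 422 of the 630 regions (67.0%), near the 64.5% of all common regions.

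Where the peaks of a region sat relative to each other was not set by the rule beyond a shared base. In 622 of the 630 regions (98.7%) each list had a single peak, against 92% of high-scoring genic and 94.1% of all common regions. The limit on width leaves little room for another peak of the same list. The peak centres lay a median of 156.75 bp apart (quartiles 69.1 and 277), against 465.5 bp in the 227 broad low-scoring genic regions (2000 bp or wider) and 126 bp in the high-scoring genic regions. Both replicates covered a median of 69.7% of the merged width, against 52.4% in broad low-scoring and 79.2% in high-scoring regions. They covered at least 50% of it in 513 narrow regions (81.4%, exact 95% interval 78.2 to 84.4, counting error only). A merged width grows as the peaks move apart, so the limit on width itself favours regions whose peaks coincide. At one end were 5 regions in which the replicates shared under 10% of the width, among them, picked after its values were seen, CAD6, annotated as a cinnamyl alcohol dehydrogenase, with 2.32% and scores of 20.1 and 26.5. At the other end AT4G29570 shared 99.3% (scores 56.4 and 27.6), MYB47 98.6% (32.9 and 35.5), AT1G20070 97.95% (46.6 and 49.4), SDR3 97.8% (92.2 and 32.6) and AT1G20380 97.5% (20.2 and 22.5). Of these only AT1G20380 had both scores near the floor of the lists. SDR3 came near the limit of the rule in a single list, with 32.6 in the other. Over the members, however, median shared width was larger at higher scores. It was 62.3% in the 136 regions with both peaks under 30. In all 436 regions with both peaks under 50 it was 67.0%, and in the 43 with both at least 50 it was 77.5%. This difference was not tested.

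The members just inside the limit on score were CHUP1, which anchors chloroplasts to actin (99.9 in replicate 1, 62.0 in replicate 2), and NAC3, also called ANAC055 (34.7 and 99.6). Just outside it lay AT3G43990 (100.6 and 21.0) and AT3G19100 (66.9 and 100.7). Just inside the limit on width were UGT72E1 at 1999 bp and AT1G02620 at 1998 bp, and just outside it PSBP-1, a subunit of the oxygen-evolving complex, at 2003 bp and P1R1 at 2004 bp. The values on either side of each limit are nearly the same.

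Among the 10 regions ranked highest in both lists, by the lower of their score percentiles, those in genes with a symbol spanned different functions. NRPA2 (AT1G29940), the second-largest subunit of RNA polymerase I, scored 81.1 and 87.1 at chromosome 1, 10478658 to 10479813, a region that covered 10.3% of its long gene body. GATA5 (AT5G66320), a zinc finger transcription factor, scored 80.2 and 77.8 at chromosome 5, 26495816 to 26497453. PSAD-1 (AT4G02770), a stromal subunit of photosystem I, scored 70.4 and 85.3 at chromosome 4, 1228396 to 1230141. The laccase LAC10 (AT5G01190), of a family of enzymes that polymerise lignin, scored 78.4 and 74.5 at chromosome 5, 72980 to 74567. PDLP6 (AT2G01660), a protein of plasmodesmata, the channels between plant cells, scored 87.9 and 68.5 at chromosome 2, 291472 to 292901. The other members of the first 10 carried a locus tag only: AT1G80580 (83.9 and 80.6), AT4G08230 (75.6 and 79.2), AT1G30740 (78.8 and 76.9), AT4G29020 (69.5 and 78.2) and AT4G08545 (78.6 and 72.6). The lowest score among all 10 regions in either list was 68.5.

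The 630 midpoints lay in 634 protein-coding genes, which is 2.31% of the 27444 in the reference. Broad low-scoring regions lay in 0.842% of genes, high-scoring regions in 1.12%, and common regions of any kind in 4.58%. A midpoint lay in an overlapping pair of genes for 10 members, including AGP10 with AT4G09035, EXT3 with AT1G21313 and PRP4 with AT4G38775, and the reads cannot be assigned to either gene. The opposite case, a gene with 2 narrow regions, occurred in 6 genes: RSH2, GH3.3, LRL1, LHB1B1, BAT1 and CYP79B2. These need not be separate sites. In GH3.3 the first region ended at 9865729 and the next began at 9865740 on chromosome 2. In CYP79B2 the first ended at 18526508 and the next began at 18526568 on chromosome 4. Each of these pairs, if joined, would be wider than 2000 bp and so not narrow. The regions in LRL1, a bHLH factor of root hair growth, scored 36.3 and 39.2 and 22.6 and 51.2, those in BAT1, an acyltransferase of brassinosteroids, 56.5 and 34.0 and 21.3 and 29.8, and those in RSH2 37.7 and 20.1 and 34.4 and 30.2. LHB1B1, also called LHCB1.4, encodes a chlorophyll-binding antenna protein of photosystem II, and its regions sat on either end of the gene with the stretch between them in neither. They lay at chromosome 2, 14524286 to 14525189 (scores 29.5 and 25.2), and 14525374 to 14526431 (80.8 and 63.7). The LHCB1 genes are near-identical copies, and the sources used here do not say how reads that fit several copies were handled.

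Genes with a narrow region were shorter than genes in general, at a median of 1766 bp (quartiles 1233 and 2536.5) against 2078 bp (1323 and 3030). The medians were 2083 bp for genes with broad low-scoring and 1802 bp for genes with high-scoring regions. A longer body offers more room for a midpoint, yet the share of genes with a narrow region was highest between 1 and 2 kb, at 3.46% of 8623 genes (exact 95% interval 3.08 to 3.86). It was 1.85% below 1 kb (1.47 to 2.29), 2.06% from 2 to 3 kb (1.75 to 2.41) and 0.795% from 6 kb (0.320 to 1.63). High-scoring regions were also most frequent in genes of 1 to 2 kb, at 1.46%. Broad low-scoring regions were nearly absent from genes under 1 kb, with 5 of 4377 genes (0.114%), where narrow regions lay in 81 and high-scoring regions in 50. These intervals cover counting error only and no difference between the classes was tested, because all of them come from the same 2 libraries.

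**Figure D2:**
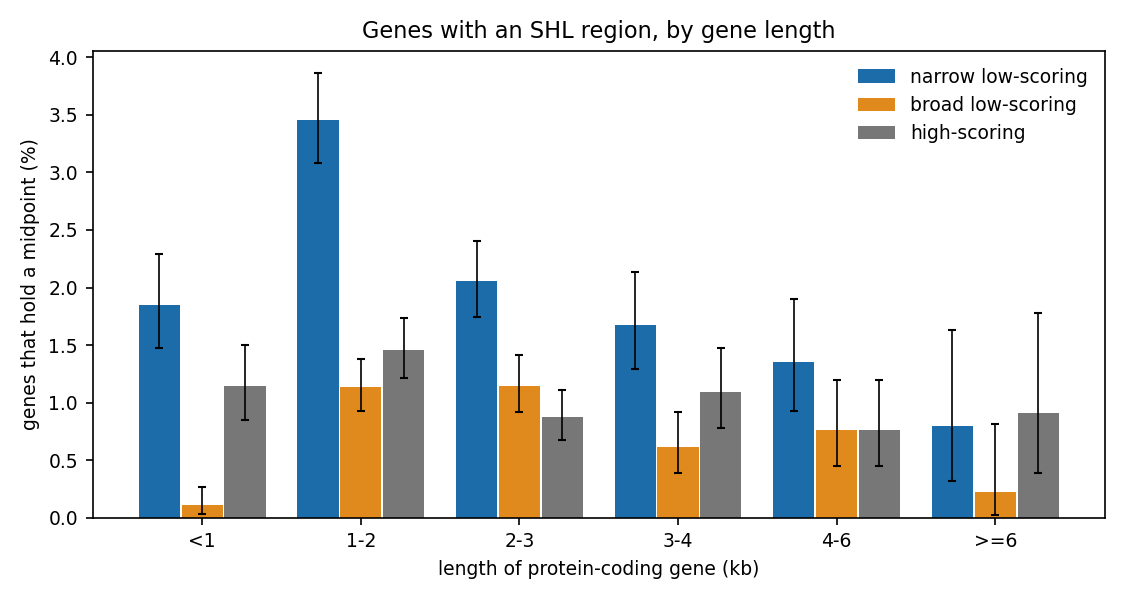
Percentage of protein-coding genes (y axis) that hold the midpoint of a narrow low-scoring (blue), broad low-scoring (orange) or high-scoring (grey) region, by gene length in kb (x axis), with exact 95% intervals for counting error. The share with a narrow region is highest in genes of 1 to 2 kb, at 3.46%, and lowest in genes of 6 kb or more, at 0.795%.

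A narrow region typically spanned most of a short gene. It covered a median of 72.8% of the gene body (quartiles 48.3 and 97.8), against 97.3% for broad low-scoring and 95.3% for high-scoring regions. A median of 85.1% of the narrow region lay inside the gene, against 82.0% and 66.5%. The region took in 1 end of the gene in 361 cases (57.3%), both ends in 138 (21.9%) and neither in 131 (20.8%). In both comparison classes a larger part took in both ends, 44.9% of broad low-scoring and 45.7% of high-scoring regions, which were not matched to the narrow regions in width or gene length. Midpoints of narrow regions lay a median of 31.5% of the gene length from the nearer end, or 502 bp. The reference gives no strand, so which end is the start of transcription was not determined. Another protein-coding gene was touched by 68 narrow regions (10.8%), against 22.9% of broad low-scoring and 30% of high-scoring regions.

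**Figure D3:**
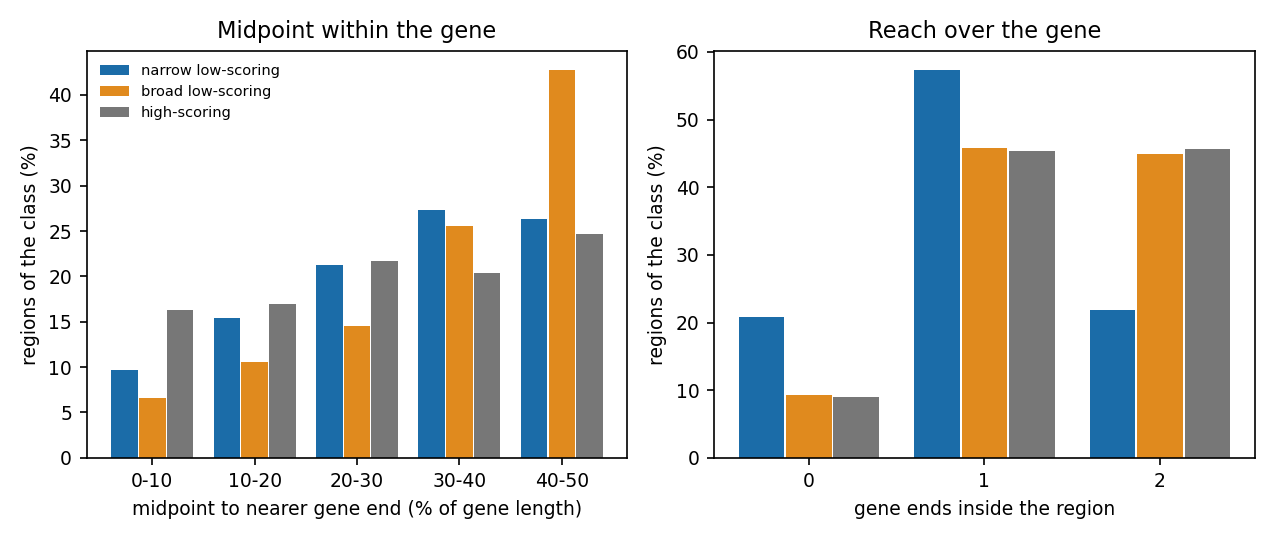
Left, distance of the midpoint from the nearer gene end in percent of gene length (x axis), and right, number of gene ends inside the region (x axis), each as the percentage of regions (y axis) of the narrow low-scoring (blue), broad low-scoring (orange) and high-scoring (grey) genic class. Of the narrow regions, 57.3% take in 1 gene end, and both ends are inside 21.9% of narrow, 44.9% of broad low-scoring and 45.7% of high-scoring regions.

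The genes with narrow regions stood in open stretches of the genome. The gaps to the neighbouring protein-coding genes on both sides summed to a median of 3870.5 bp (quartiles 1984 and 6838), against 1855 bp (702 and 4026) over all protein-coding genes. The gap to the nearer neighbour alone was 825.5 bp against 190 bp. Genes with broad low-scoring regions (4147 bp) and with high-scoring regions (3724.5 bp) had sums of a like size. A single RefSeq transcript was annotated for 72.4% of the genes with narrow regions (exact 95% interval 68.7 to 75.8), against 64.9% of genes with broad low-scoring regions, 66.9% of genes with high-scoring regions and 61.0% of all genes (60.4 to 61.6). The regions were spread over all chromosomes, from 4.71 per Mb on chromosome 5 to 5.85 per Mb on chromosome 1. Windows of 1 Mb poor in protein-coding genes held 20 of them (3.17%, interval 1.95 to 4.86), against 1.76% of broad low-scoring and 14% of high-scoring genic regions. Of all protein-coding genes, 4.66% lay in such windows, a share inside the interval of the narrow regions.

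Counts in gene families were set beside the 2.31% of all protein-coding genes. The 23 lists were defined by RefSeq symbol, and their 1236 genes included 73 with a narrow region (5.91%, exact 95% interval 4.66 to 7.37), against 561 of the 26208 other genes (2.14%, 1.97 to 2.32). Of the genes that carry a symbol, the only ones that could enter a list, 298 of 10374 had a narrow region (2.87%, 2.56 to 3.21). In 6 of the lists the whole interval lay above 2.31%, and in 6 it lay above the share of genes with a symbol. Genes of the lists had a median length of 1858 bp and other genes of 2094 bp. Families were chosen with earlier results of these data known, and no test of enrichment was run.

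**Figure D4:**
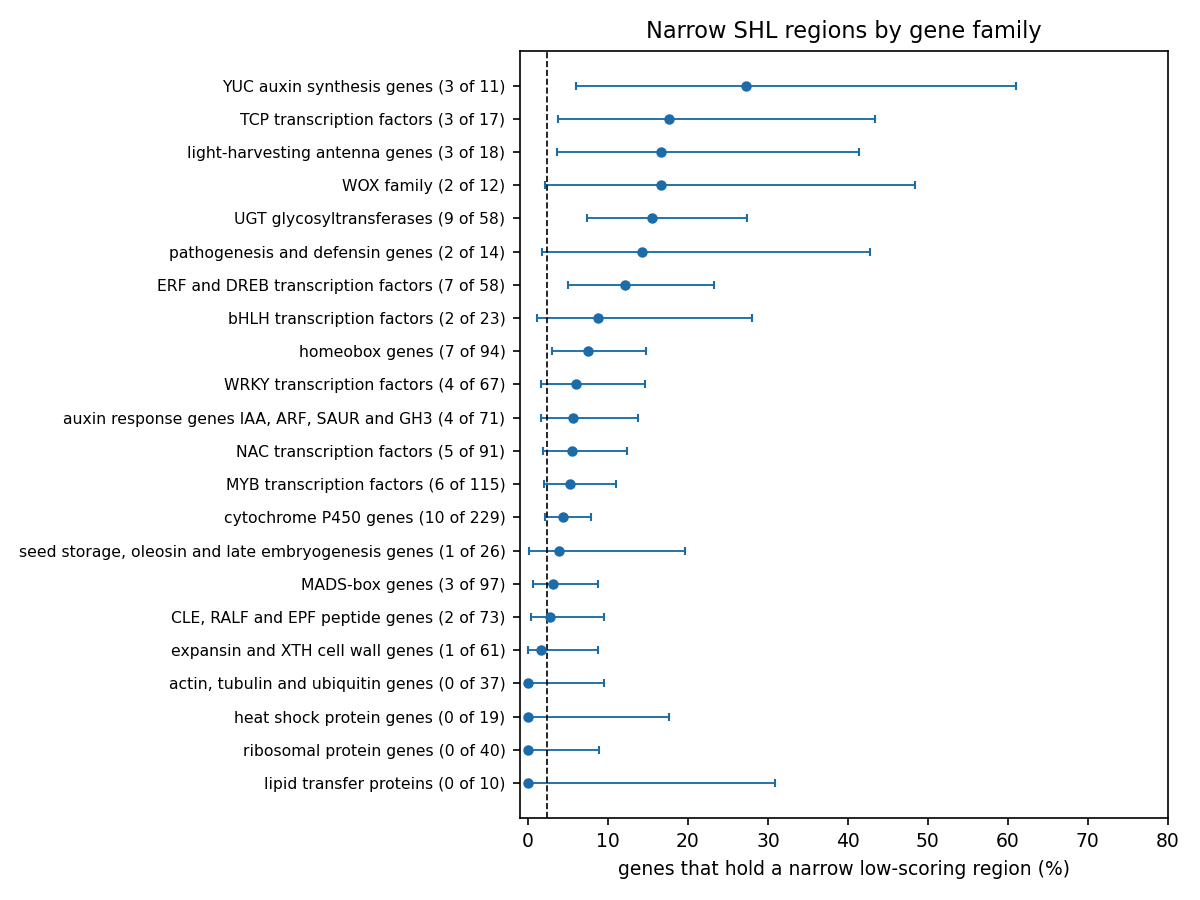
Percentage of the genes of each of 22 symbol-defined lists that hold a narrow low-scoring region (x axis), with exact 95% intervals for counting error, where the dashed line marks the 2.31% of all protein-coding genes and the counts stand beside each name. The YUC list is highest at 27.3%, and 4 lists (lipid transfer, ribosomal, heat shock, and actin, tubulin and ubiquitin genes) have no gene with such a region.

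UGT glycosyltransferases, enzymes that attach sugars to hormones and phenolic compounds, had 9 of 58 genes with a narrow region (15.5%, exact 95% interval 7.35 to 27.4). A further 2 had a broad low-scoring region and none a high-scoring one. Of the 3 UGT72E genes, whose products glucosylate monolignols, the building blocks of lignin, all 3 were members. UGT72E1 (AT3G50740) scored 60.1 and 55.2 at chromosome 3, 18855188 to 18857186, with both peaks centred on the same base. UGT72E2 (AT5G66690) scored 36.0 and 65.4. UGT72E3 (AT5G26310), named after its values were seen, scored 24.3 and 38.3. UGT78D3 (AT5G17030), a flavonol glycosyltransferase, scored 71.6 and 41.1, and UGT71B5 (AT4G15280) 31.8 and 43.6. Copies within the UGT clades are alike in sequence, and multiply mapped reads could not be examined. Of the cytochrome P450 genes, 10 of 229 had a narrow region (4.37%, interval 2.11 to 7.88) and as many a broad low-scoring one. CYP79B2 (AT4G39950), which makes indole-3-acetaldoxime for indole glucosinolates, held a pair of narrow regions, at 76.6 and 34.1 and at 63.5 and 49.1. CYP89A2 (AT1G64900) scored 42.6 and 68.9, CYP71A25 (AT3G48280) 27.4 and 37.1, and CYP86A2 (AT4G00360), a fatty acid hydroxylase of cutin synthesis, 26.6 and 30.6.

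Transcription factor families made up most of the other lists whose share was above the background of 2.31%. Among them the whole interval lay above it only for ERF and DREB, homeobox and TCP genes. The lists overlap, their number was not allowed for, and they were chosen with earlier results known. This sorting is therefore a description and not a test. ERF and DREB genes, which mediate ethylene and stress responses, had 7 of 58 (12.1%, exact 95% interval 4.99 to 23.3). ERF12 (AT1G28360) scored 71.3 and 51.4 at chromosome 1, 9951453 to 9952905, ERF38 (AT2G35700) 49.1 and 95.1, and ERF8 (AT1G53170) 45.8 and 31.7. SHN1 (AT1G15360), which induces wax and cutin synthesis, scored 42.5 and 44.1. TCP genes, regulators of cell division in organs, had 3 of 17 (17.6%, 3.80 to 43.4) and neither broad nor high-scoring regions. TCP4 (AT3G15030), which limits leaf cell division and is a target of miR319, scored 76.5 and 40 in a region of 1091 bp inside its gene. TCP15 (AT1G69690) scored 25.8 and 37.9, and TCP16 (AT3G45150) 32.3 and 21.95. WRKY genes, mostly of defence and senescence, had a narrow region in 4 of 67 (5.97%, 1.65 to 14.6) and a broad low-scoring one in 8. WRKY13 (AT4G39410) scored 32.2 and 33.6, WRKY35 (AT2G34830) 28.9 and 33.6, WRKY57 (AT1G69310) 43.3 and 24.8, and WRKY17 (AT2G24570) 82.5 and 21.3. The peaks of WRKY17 shared 88.4% of its region.

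MYB genes had 6 of 115 (5.22%, exact 95% interval 1.94 to 11.0), led by MYB47 (32.9 and 35.5), MYB73 (59.5 and 31.7), MYB56 (30.2 and 23.1) and MYB118 (42.3 and 21.9), the last a regulator of endosperm maturation. NAC genes had 5 of 91 (5.49%, 1.81 to 12.4). NAC067 (AT4G01520) scored 53.7 and 46.2, and VND7 (AT1G71930), a master switch of xylem vessel formation, 32.7 and 41.0. CUC2 (AT5G53950), which sets the boundaries between organs, scored 67.5 and 23.8 at chromosome 5, 21901375 to 21903153. Of the bHLH genes identified by symbol, 2 of 23 were members (8.70%, 1.07 to 28.0): HEC3, which acts in carpel tissue (60.8 and 32.6), and SPCH, which starts the stomatal lineage (30.4 and 27.7). LRL1, also a bHLH factor, was a member outside this list. MADS-box genes stood near the background at 3 of 97 (3.09%, 0.642 to 8.77). They were SEP4 (33.5 and 47.5) and AP1 (22.6 and 31.4), which specify floral organs and meristems, and AGL42 (24.3 and 52.6). Their replicate peaks shared 97.5% of the merged width in SEP4, 49.4% in AP1 and 55.3% in AGL42.

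Homeobox genes had 7 of 94 members (7.45%, exact 95% interval 3.05 to 14.7). HAT9 (AT2G22800), of the HD-ZIP class, scored 55.5 and 54.6 at chromosome 2, 9704772 to 9706470, and HB26 (AT5G60480), of the zinc finger homeodomain class, 55.3 and 32.3. WOX5 (31.9 and 34.1), of the root stem cell niche, was covered whole by its region, while the region in WOX1 (43.95 and 29.8), of leaf blade outgrowth, covered 47.6% of the gene with peak centres 2 bp apart. The WOX family as defined by symbol had 2 of 12 (16.7%, 2.09 to 48.4). PRS (AT2G28610), the third WOX gene by its synonym WOX3, was not in that list and scored 22.9 and 35.4. PRS was picked with its values in view.

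YUC genes, whose flavin monooxygenases make auxin, had 3 of 11 (27.3%, exact 95% interval 6.02 to 61.0). YUC1 (AT4G32540) scored 35.7 and 36.4 at chromosome 4, 15700662 to 15702041, YUC4 (AT5G11320) 48.6 and 34.1 at chromosome 5, 3612329 to 3614179, and YUC8 (AT4G28720) 63.6 and 25.7 at chromosome 4, 14192374 to 14193741. WAG1 (54.0 and 71.2) and WAG2 (48.4 and 55.3), kinases of auxin transport, and STY1 (37.9 and 43.6), an activator of YUC4, were named after their values were seen. Their peaks shared 83.8% of the merged width in WAG1, 92.8% in WAG2 and 95.3% in STY1. Auxin response genes of the IAA, ARF, SAUR and GH3 types had 4 of 71 (5.63%, 1.56 to 13.8): IAA2 (41.1 and 36.4), IAA20 (36.4 and 34.6), IAA19 (22.5 and 29.1) and GH3.3, an auxin-conjugating enzyme (28.8 and 47.1, and 30.6 and 24.3 in its other region).

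In photosynthesis, 3 of 18 antenna genes had a narrow region (16.7%, exact 95% interval 3.58 to 41.4), 4 a broad low-scoring and 2 a high-scoring one. Besides LHB1B1 these were LHCA2 (AT3G61470), of the photosystem I antenna, with 45.4 and 30.2, and LHCB2.1 (AT2G05100), of the photosystem II antenna, with 29.4 and 26.3 in a region of 876 bp. Photosystem I subunits, a list added after values were seen, had 3 of 14 (21.4%, 4.66 to 50.8): PSAD-1, PSAF (52.9 and 45.1) and PSAK (29.2 and 38.8). PETE1, a plastocyanin (24.7 and 22.0), and ELIP2, an early light-inducible protein (25.6 and 28.1), were picked likewise and lay near the floor of both lists.

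The other lists were near or below the background, or too small to place. Expansin and XTH genes of cell wall loosening had 1 of 61 (XTH30, 40.4 and 30.3), and CLE, RALF and EPF peptide genes 2 of 73 (CLE2, 31.9 and 24.3, and CLE9, 20.7 and 37.0). Seed storage, oleosin and late embryogenesis genes had 1 of 26 narrow, LEC2 (AT1G28300), at 45.6 and 21.6, beside 3 broad low-scoring regions. LEC2 is a master regulator of embryogenesis and not itself a storage, oleosin or late embryogenesis protein. AtLEA4-1 (AT1G32560), a late embryogenesis gene by its symbol, fell outside the list and was a member at 30.2 and 27.4. It was picked with its values in view. Pathogenesis and defensin genes had 2 of 14 (14.3%, exact 95% interval 1.78 to 42.8), which were PR5 (29.0 and 42.65) and PR1 (27.2 and 21.7), markers of salicylic acid responses. No narrow region lay in 40 ribosomal protein genes (upper limit 8.81%), 37 actin, tubulin and ubiquitin genes (9.49%), 19 heat shock protein genes (17.6%) or 10 lipid transfer protein genes (30.8%). Each of these limits lies above 2.31%, so an absence could not be told from the background. Of the flowering genes FT, SOC1, FLC, SHL and EBS none held a narrow region. The region in SOC1 was 2550 bp wide, and that touching SHL was 3970 bp wide with its midpoint outside the gene.

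Some 13 further families were listed because members had been seen among the regions, so their shares are raised by that choice. They are only a description beside the 2.31% of all protein-coding genes. LBD genes of lateral organ boundaries had 6 of 42, led by JLO (49.3 and 62.4), LBD40 (33 and 46.9), LBD2 (50.2 and 26.4) and LBD16 (26.3 and 34.1), a regulator of lateral root initiation. LSH genes, several of them expressed at organ boundaries, had 4 of 10: LSH1 (60.6 and 77.7), LSH2 (43.0 and 32.3), LSH10 (22.8 and 31.7) and LSH3 (21.9 and 54.3). AT-hook AHL genes had 3 of 7, with SOB3 (52.3 and 61.9) and ESC (53.0 and 40.8), both of which restrain hypocotyl growth, and AHL18 (30.7 and 62.6). NGA genes of leaf margins and styles had 2 of 4, NGA1 (42.4 and 60.6) and NGA4 (31.9 and 31.2), and GRAS genes 1 of 25, SHR of root patterning (57.0 and 29.2).

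Hormone and metabolite genes were the other part of these 13. IPT genes, which catalyse the first step of cytokinin synthesis, had 3 of 9: IPT6 (42.4 and 40.7), IPT1 (26.5 and 38.5) and IPT3 (25.2 and 98.4). CKX genes, which degrade cytokinin, had 2 of 7, CKX3 (31.3 and 47) and CKX2 (41.7 and 21.2). Abscisic acid receptors had 3 of 12: PYL6 (62.7 and 94.9), PYL2 (56.3 and 54.8) and PYL13 (56.4 and 20.3). GPAT acyltransferases had 3 of 9, GPAT5 of suberin synthesis (36.4 and 32.4), GPAT6 of cutin synthesis (27.3 and 54.7) and GPAT2 (40.2 and 20.2). Arabinogalactan proteins had 5 of 30, led by AGP10 (45.3 and 51.1), AGP5 (34.9 and 58.6), AGP27 (33.5 and 35.4) and AGP30 (25.7 and 21.9). PDLP genes had 3 of 7, with PDLP8 (22.6 and 34.7) and PDLP7 (21.5 and 28.8) beside PDLP6. Nitrate transporters had 2 of 12, NRT2.5 (37.3 and 60.9) and NRT1.1, the dual-affinity transporter and nitrate sensor (20.6 and 22.5). The exact 95% interval of that share, 2.09 to 48.4%, takes in the 2.31% of all genes.

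Groups by function that cross these families were assembled after the values were seen. Among genes of abscisic acid and drought, the dehydrins RAB18 (31.4 and 80.3) and COR47 (28.5 and 63.9) and the cold-regulated KIN2 (36.4 and 50.2) were members, as was the phosphatase AHG1 (37.6 and 26.8). NCED6, an enzyme of abscisic acid synthesis, scored 40.3 and 42.7, and CYP707A4, of its breakdown, 25.9 and 47.96. The phosphatase HAI3 stood at the floor of both lists (20.3 and 20.5) with 16.1% of its region shared. In nitrogen use, the ammonium transporter AMT1;2 scored 52.2 and 33.5, the nitrate reductase NIA1 27.4 and 29.98, and LBD37, a repressor of nitrate-response genes, 25.9 and 56.9. Lignin and flavonoid enzymes included CCR2, cinnamoyl-CoA reductase (69.0 and 41.8), LAC7 (36.7 and 36.2), the dirigent protein DIR6 (42.5 and 47.6) and TT4, chalcone synthase (39.5 and 24.7). For floral meristems there were LFY, the master regulator of floral fate (44.6 and 22.0), its cofactor UFO (26.6 and 24.4), and KNU, which ends stem cell activity in the flower (43.3 and 38.2).

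Members also occurred side by side. Of the 634 genes, 84 (13.2%) stood in 42 pairs of adjacent protein-coding genes, and no run was longer. In 32 pairs each gene had a region of its own, and in 10 a single midpoint lay in overlapping genes. Several pairs were tandem relatives, named after their values were seen: CYP71A24 (29.4 and 25.6) beside CYP71A25, NF-YC6 (41.2 and 57.8) beside NF-YC5 (31.1 and 82.3), subunits of a CCAAT-binding factor, and ESE1 (20.3 and 30.2) beside TDR1 (47.4 and 25.6), both of the ethylene response factor type. By their symbols ESE1 and TDR1 fell outside the ERF and DREB list. In other pairs the neighbours had unrelated names, such as UGT72E2 beside HB53 (21.4 and 32.7). Another narrow region lay within 10 kb of 108 members (17.1%), and a high-scoring common region within 10 kb of 59 (9.37%). Such shares were not computed for all genes or for the other classes. These counts are therefore a description, and whether members cluster was not tested.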

How the data were processed

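ChIP-seq peaks of HA-tagged SHL were analysed from 2 ChIP samples, grouped by title. The submitters' processing notes name TAIR10 as the build, and MACS 1.4, SAMtools 1.3 and Bowtie2 2.2.8 as tools. The deposited score per peak is the authors', and peaks were listed per sample. Settings, control and filters are not given in the sources used here. Peaks on the 5 nuclear chromosomes were merged by an overlap of 1 bp, leaving out 10 and 7 organelle peaks. Merging was tested on simulated peaks, and stricter merging, score and width settings and each replicate alone were tried. Gene bodies and symbols came from RefSeq TAIR10.1, whose nuclear coordinates were taken as those of TAIR10, without strand, exons or sequence, so no sequence, motif or start site was examined, although planned, and no gene coordinate is printed. Gene-poor windows of 1 Mb held under 50% of the median number of genes. Intervals are Clopper-Pearson at 95%, from SciPy 1.17.1, and cover counting error only. Members and lists were chosen with earlier results of these data known, and nothing was tested. Named genes were up to 4 per list with the highest lower percentile, the 10 highest in all, the 5 with the most shared width, genes with several regions and those at the limits. Others are marked. A gene and its list are not reported here.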

Additional observations from a re-analysis of the deposited data

How the results depend on the processing

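The alternatives for chromosome spread, replicate agreement, gaps and transcripts were chosen after seeing the data. Counts moved most. With a score floor of 30 there were 269 regions in 272 genes, with a width limit of 1500 bp 358 in 362, and with either replicate alone 1717 to 1931 regions in 1688 to 1880 genes, where the limits apply to the single peak and no overlap is asked for. Median gene length was 1726 bp with the floor, 1857 bp with the interval shared by both replicates in place of the union, 1700 bp with the width limit and 1818 to 1865.5 bp with a single replicate, below the 2078 bp of all genes in each case. The midpoint lay 33.3% of the gene length from the nearer end with the floor, 28.7% with the width limit and 28.7 to 30.1% with a single replicate. The share of member genes in a list, 11.5% as reported, was 12.1% with a score ceiling of 50 and with the shared interval, 9.94% with the width limit, 10.9% with any overlap with a gene and 10.4 to 10.8% with a single replicate. The share of regions in gene-poor windows was 3.63% with a reciprocal overlap of 50%, 2.75% with the ceiling, 3.72% with the floor, 2.78% with the shared interval, 4.75% with the width limit, 4.35% with any overlap and 2.45 to 2.74% with a single replicate. Gap sums were 4111 bp with the ceiling, 3925 bp with the floor, 3928 bp with the shared interval, 3656 bp with any overlap and 3397.5 to 3464.5 bp with a single replicate, all above the 1855 bp of all genes. The share with a single transcript was 71.5% with the ceiling, 74.3% with the floor, 69.9% with the shared interval and 71.0 to 71.8% with a single replicate. Shared width stayed within the spread of the regions under the alternatives that keep both lists, and it has no value for a single replicate. Of the counts per list under these settings, 114 stayed within 1.5 times the reported count and 70 did not. The 114 include cases in which a list without a narrow region stayed empty, which say nothing about stability. Of the 18 lists whose share was above the background, whatever their interval, 10 were above it under every setting. No paired analysis was possible because only the ChIP group was analysed and no result comes from a test. Read depth is unknown, and regions near the floor of the lists cannot be told from missed ones.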

Other observations

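Further genes, chosen after their values were seen, filled in other functions. In glucosinolate metabolism AOP3, a side-chain modifying enzyme, scored 32.2 in replicate 1 and 63.0 in replicate 2, ESP, which steers glucosinolate breakdown to nitriles, 38.9 and 35.0, IMS2, of methionine chain elongation, 37.95 and 21.8, and FMO GS-OX4 22.1 and 22.5. On the plant surface the wax synthesis gene CER1 scored 44.1 and 47.9 and the subtilisin protease ALE1 28.0 and 20.8, while ALMT12, an anion channel of guard cells, scored 47.8 and 29.6. Among regulators of growth, GA3OX2, which makes active gibberellin, scored 69.99 and 39.9, MIZ1, of root hydrotropism, 67.7 and 52.4, and CCD7, of strigolactone synthesis, 36.3 and 32.9. KAN2, of leaf polarity, scored 30.4 and 48.8, KNAT6, a meristem homeobox gene, 36.7 and 20.1, and AIL6, of floral organ growth, 33.0 and 23.5, with peaks that shared 28.7% of the AIL6 region.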
